A study of Homo sapiens with 2 samples.

Results

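Potassium channel genes were taken as the protein-coding genes of RefSeq on GRCh38 whose symbols start with KCN, 96 of 20037 protein-coding genes. The data are CUT&Tag profiles, in which a transposase tethered to an antibody cuts and tags DNA where the antibody's target sits, from TC32, an established cell line of Ewing sarcoma. One library came from TC32 cells given siEWS-FLI and one from TC32 cells given siNEG, and the profiles were made for binding of EWS-FLI, the fusion of EWSR1 with the ETS factor FLI1. The labels name neither the antibody nor what siNEG stands for, no level of the fusion was measured, and the title of the study is about cisplatin and ATR inhibition. With 1 library in each group no difference given here has a replicate check, and no p-value is given.

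Potassium channels let potassium ions leave or enter cells along their gradient and so set the resting voltage, shape and end action potentials, and adjust cell volume. Pore-forming subunits fall into voltage-gated, calcium- or sodium-activated, inward rectifier and tandem-pore (K2P) classes, and auxiliary subunits alter their gating and their traffic to the membrane. Most are known from nerve, muscle, heart and secretory tissue. KCNN1 and KCNA5 have been studied in Ewing sarcoma. EWS-FLI binds GGAA, the core of ETS sites, and runs of GGAA repeats.

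The siEWS-FLI list held 6370 intervals and the siNEG list 16284 on chromosomes 1 to 22, X and Y. With the mappable genome taken as 2700000000 bases, reads stood at about 1600020 with siEWS-FLI and 2848810 with siNEG, a ratio of 0.562. These counts leave out the reads of a window of 10000 bases on the mitochondrial genome, 1629620 with siEWS-FLI and 1853910 with siNEG. Mitochondrial reads outside that window are still counted, so 0.562 is a rough guide to depth. The lists were not made at equal depth. Strength is given as the summit pileup, the number of extended raw reads over the strongest base of a called interval, with a 95% Poisson interval that covers counting error only. The weakest called summits had 4 reads in both lists, 2673 of them with siEWS-FLI and 2292 with siNEG, and a site that was not called is not shown to be empty.

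Few potassium channel genes carried a called site of their own. A summit lay within 1 kb of either end of 1 gene with siEWS-FLI (1.04%, exact 95% interval 0.0264 to 5.67) and of 6 genes with siNEG (6.25%, 2.33 to 13.1). Over all 20037 protein-coding genes these shares were 12.3% with siEWS-FLI and 34.1% with siNEG. Inside the gene, 11 potassium channel genes had a siEWS-FLI summit and 18 a siNEG summit, or 11.5% (5.86 to 19.6) and 18.8% (11.5 to 28.0), against 13.6% and 29.3% of all genes. Potassium channel genes are longer than most, with a median length of 39.2 kb against 24.1 kb, and all genes weighted to their lengths gave 17.3% with siEWS-FLI and 34.6% with siNEG inside the gene. These intervals treat genes as independent, which neighbours are not, and they describe these libraries alone.

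**Figure D1:**
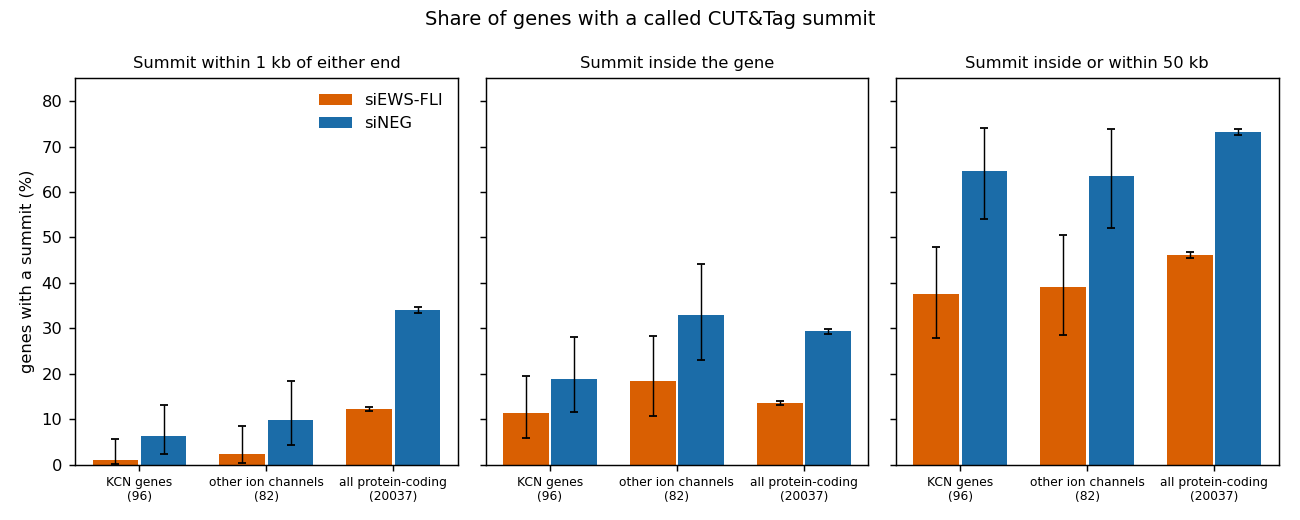
Share of genes with a called summit (vertical axis, percent) within 1 kb of a gene end, inside the gene, and inside or within 50 kb, for siEWS-FLI (orange) and siNEG (blue); bars are shares and lines exact 95% binomial intervals. At gene ends potassium channel genes stood at 1.04% and 6.25%, against 12.3% and 34.1% of all genes.

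With the window opened to the gene and 50 kb on each side, 36 potassium channel genes had a siEWS-FLI summit (37.5%, 27.8 to 48.0) and 62 a siNEG summit (64.6%, 54.2 to 74.1). All genes stood at 46.1% and 73.3%. Both libraries had a summit in the window of 32 genes and neither in that of 30. siNEG alone had one in that of 30, and siEWS-FLI alone in that of 4, among them KCNG2, KCNK5 and KCNN3. Of all 20037 protein-coding genes, 14678 had a siNEG summit in this window, 8360 of them with a siEWS-FLI summit too. Another 870 had a siEWS-FLI summit alone, and 4489 had neither. Among potassium channel genes with a siNEG summit, 51.6% (38.6 to 64.5) also had a siEWS-FLI summit, against 57.0% of all genes. Inside the gene it was 4 of 18 genes (22.2%), against 29.9% of all genes, and within 1 kb of an end 0 of 6, against 32.7%. Among the 32 genes, 19 had a site called at the same position in both libraries and 13 had sites at different positions only.

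The wide window mostly counted sites of other genes. It held 48 different siEWS-FLI sites and 134 different siNEG sites, of which 20 and 47 had a potassium channel gene as their nearest protein-coding gene. Weighted to the number of other genes within 50 kb, a choice made after seeing the data, all genes gave 38.4% with siEWS-FLI and 65.4% with siNEG, within 1 percentage point of the potassium channel genes. Of 26 members with no other gene within 50 kb, 7 had a siEWS-FLI and 11 a siNEG summit, against 27.3% and 50.8% of all such genes. Of 14 members with 4 or more neighbours, 12 had a siEWS-FLI and 14 a siNEG summit, against 65.8% and 86.8%.

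No siEWS-FLI interval overlapped any of the 29 siNEG sites inside or within 1 kb of a potassium channel gene. The 0 of 29 allows a shared share of up to 10.3%. Over the whole siNEG list 15.6% of intervals were shared, 28.2% of those at gene ends, 8.1% of those inside genes and 8.84% of those between genes. The pileup ran from 4 to 28 reads and was 9 reads or fewer at 23 of the 29, against 57.4% of all 16284 siNEG intervals. Of all siNEG intervals with 9 reads or fewer, 335 of 9342 were shared (3.59%). Since most of the 29 were this weak, the 15.6% is not a like comparison. The caller had its own threshold at each site. At the local background of siNEG, siEWS-FLI pileups up to a limit of 3 to 9 reads, depending on the site, would have been missed. All such limits below assume that background and can be too high. At the shared site of ESRRA near KCNK4 the limit was 14 reads, but siEWS-FLI was called there with 9. The local background there was 0.68 reads with siEWS-FLI and 4.38 with siNEG.

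Among voltage-gated subunits, KCND2, the gene of the A-type channel Kv4.2, had no siEWS-FLI call and 22 siNEG reads (13.8 to 33.3) deep inside the gene, 199.6 kb from its nearer end, on chromosome 7 (120550519 to 120550935). At the siNEG background, a siEWS-FLI pileup of 5 there would not have been called.

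KCNH1, which encodes the channel Kv10.1, had 6 siNEG reads (2.2 to 13.1) 254 bases outside its end and no siEWS-FLI call there. Its siEWS-FLI summits, 4 reads each (1.09 to 10.2), lay inside the gene 20.4 kb and 100.9 kb from an end. KCNS3 and KCNS1, which encode silent subunits that modify other voltage-gated channels, had no siEWS-FLI call and siNEG sites of 6 and 5 reads at 810 and 729 bases from a gene end. The KCNS3 summit was 10 bases before a RefSeq start. KCNH2, the gene of the heart channel hERG, was the member with a siEWS-FLI summit within 1 kb of an end, with 4 reads 644 bases inside. Its strongest siNEG site, 23 reads (14.6 to 34.5), was 6.57 kb outside the gene. KCNA2 (6 siNEG reads), KCND3 (5) and KCNQ1 (7, 5 and 5) had siNEG sites inside the gene, none of them shared. KCNQ1 and KCNB2 each had a siEWS-FLI summit of 4 reads inside.

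Among auxiliary subunits, KCNAB2 had the strongest site at a member's own end. This gene of a beta subunit of Kv1 channels had no siEWS-FLI call and 15 siNEG reads (8.40 to 24.7) 3 bases from its start on chromosome 1 (5992244 to 5992801). A siEWS-FLI pileup of 5 at this start would not have been called at the siNEG background. KCNIP2, which encodes a calcium-binding partner of Kv4 channels, had no siEWS-FLI call and 17 siNEG reads (9.90 to 27.2) 4.92 kb inside the gene on chromosome 10 (101830708 to 101831088). KCNIP1 had 8 siNEG reads inside. KCNIP4, the longest member at 1220 kb, had 3 siEWS-FLI summits of 4 reads and 1 siNEG summit of 5 reads at different positions. KCNAB1 had 4 reads in each library, again at different positions.

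Of the inward rectifiers, KCNJ6, the gene of the G-protein-gated channel GIRK2, had no siEWS-FLI call and 15 siNEG reads (8.40 to 24.7) 60.2 kb inside the gene on chromosome 21. KCNJ10, which encodes the glial channel Kir4.1, had no siEWS-FLI call and 8 siNEG reads (3.45 to 15.8) 164 bases outside its end. KCNJ12 had a siEWS-FLI site of 6 reads (2.2 to 13.1) inside the gene and no siNEG site there. KCNJ12 and KCNJ18 are near-identical copies, so reads there are uncertain between them. Of the calcium- and sodium-activated channels, KCNMA1, the gene of the large-conductance BK channel, had 1 siEWS-FLI summit of 4 reads and siNEG summits of 9, 7 and 4 reads, none overlapping. KCNT2 had siNEG summits of 4 reads, KCNN2 1 of 4, and KCNT1 and KCNN3 siEWS-FLI summits of 4 reads. No tandem-pore gene had a summit inside it or within 1 kb of an end in either library.

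**Figure D2:**
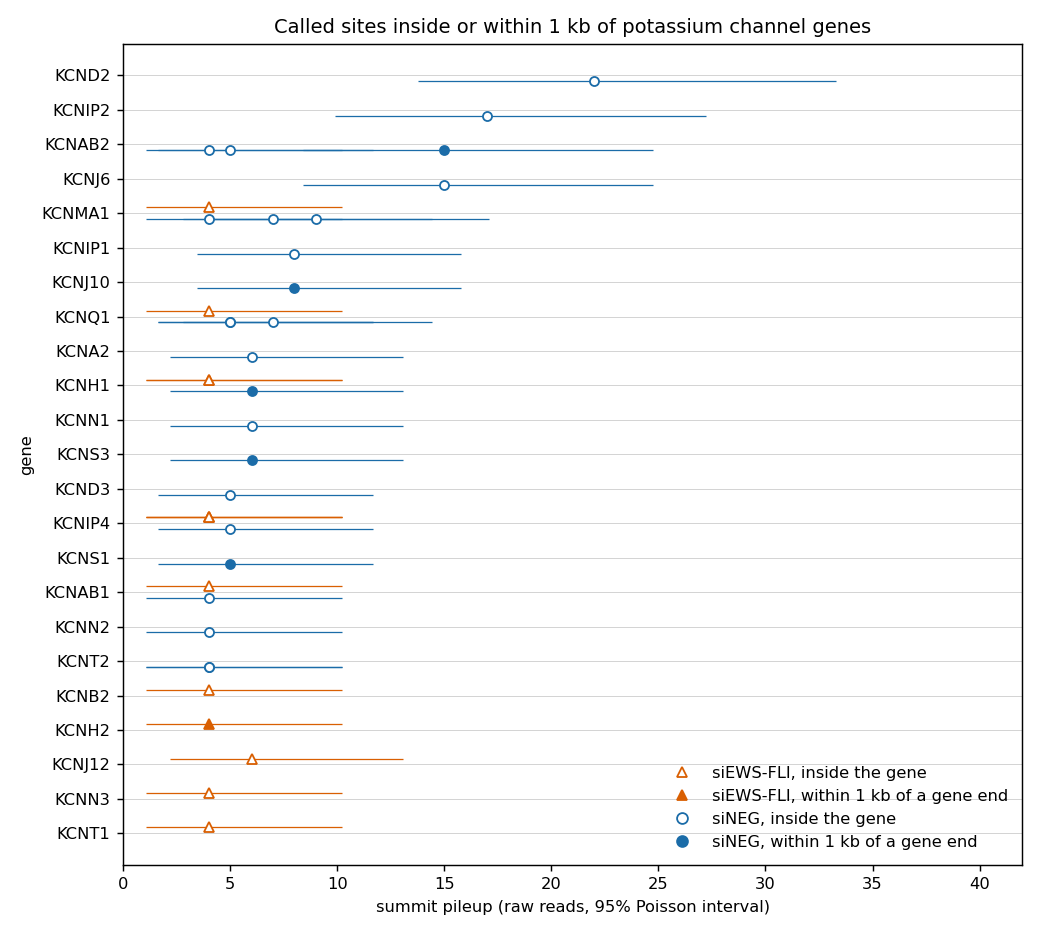
Summit pileup in raw reads (horizontal axis) of the called sites inside or within 1 kb of the potassium channel genes shown, by gene, for siEWS-FLI (triangles) and siNEG (circles); filled symbols are within 1 kb of a gene end and lines are 95% Poisson intervals. The siEWS-FLI sites drawn had 4 reads but for the site of 6 reads in KCNJ12, and the siNEG sites drawn ran from 4 to 22.

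The 14 siEWS-FLI sites inside or within 1 kb of a member were near the limit of calling. All had 4 reads except the KCNJ12 site, and 13 were exactly 200 bases wide, the narrowest width in the list. No siNEG interval overlapped any of the 14, which allows a share of up to 21.4%, against 41.1% of the siEWS-FLI list as a whole. By location the list had 20.8% shared inside genes, where 13 of the 14 sites lay, 84.8% at gene ends and 20.9% between genes, so the limit of 21.4% does not set these sites apart from others inside genes. Gene bodies of members covered 11.8 Mb and held 14 siEWS-FLI and 25 siNEG summits, or 1.19 per Mb (0.650 to 2.0) and 2.12 per Mb (1.37 to 3.13). Bodies of all protein-coding genes held 2.42 and 6.25 per Mb. Leaving out summits within 1 kb of any gene end, members had 1.10 per Mb with siEWS-FLI (0.588 to 1.89) and 1.95 with siNEG (1.24 to 2.93), against 1.66 and 4.10 per Mb in all genes.

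KCNN1, the gene of the small-conductance channel SK1, had no siEWS-FLI summit within 50 kb. Inside the gene siNEG had 6 reads (2.2 to 13.1), 1132 bases from a RefSeq start of KCNN1. A siEWS-FLI pileup of 4 would not have been called there at the siNEG background. Outside KCNN1, siNEG sites of 6 reads lay 1.14 kb away, 100 bases inside an end of ARRDC2, and 6.72 kb away inside ARRDC2. A site of 8 reads 18.6 kb away was 302 bases outside an end of CCDC124. A site of 17 reads 23.9 kb away lay between genes and was nearest to ARRDC2. KCNA5, which encodes Kv1.5, had no summit within 50 kb in either library.

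Promoter letters were read for the members whose RefSeq promoter window, 250 bases before to 50 after a start, met a called interval. The promoter table held 110 windows of 72 members, and 0 of them met a siEWS-FLI interval, which allows up to 2.73%, and 4 (3.64%, 1.0 to 9.05) a siNEG interval. Of 22199 windows of protein-coding genes, 9.46% and 28.8% did. The table used here has no window for 24 members, among them KCNA1, KCNAB3, KCNB2, KCNE4, KCNG1, KCNH3, KCNH7, KCNJ9, KCNJ11, KCNJ12, KCNK9, KCNK12, KCNK15, KCNMB4, KCNQ1, KCNQ3, KCNS1, KCNS2, KCNU1 and KCNV1. The 250 bases before the start are given 5′ to 3′ on the gene's strand from RefSeq on GRCh38.p14, with every GGAA and its reverse complement TTCC in capitals, because these are the promoters of members that carried signal. KCNAB2 is chr1:5992426-5992675 (plus strand, 15 siNEG reads), KCNJ10 chr1:160070161-160070410 (minus, 8 reads), KCNH1 chr1:211134149-211134398 (minus, 6 reads) and KCNS3 chr2:17878417-17878666 (plus, 6 reads).
KCNAB2: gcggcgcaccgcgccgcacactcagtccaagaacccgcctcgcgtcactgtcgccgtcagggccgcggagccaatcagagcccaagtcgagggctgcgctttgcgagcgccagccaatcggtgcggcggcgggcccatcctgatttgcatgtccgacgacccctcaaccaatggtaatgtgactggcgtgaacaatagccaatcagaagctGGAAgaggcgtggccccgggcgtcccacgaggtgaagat
KCNJ10: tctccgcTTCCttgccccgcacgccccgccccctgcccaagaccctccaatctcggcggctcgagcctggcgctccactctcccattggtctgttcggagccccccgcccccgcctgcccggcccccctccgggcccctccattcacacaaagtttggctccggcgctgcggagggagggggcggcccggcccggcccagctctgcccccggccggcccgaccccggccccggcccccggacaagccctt
KCNH1: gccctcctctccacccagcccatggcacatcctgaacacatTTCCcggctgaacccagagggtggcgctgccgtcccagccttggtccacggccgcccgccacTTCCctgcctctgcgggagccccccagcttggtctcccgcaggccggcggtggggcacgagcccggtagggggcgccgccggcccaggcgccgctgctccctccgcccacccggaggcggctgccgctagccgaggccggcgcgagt
KCNS3: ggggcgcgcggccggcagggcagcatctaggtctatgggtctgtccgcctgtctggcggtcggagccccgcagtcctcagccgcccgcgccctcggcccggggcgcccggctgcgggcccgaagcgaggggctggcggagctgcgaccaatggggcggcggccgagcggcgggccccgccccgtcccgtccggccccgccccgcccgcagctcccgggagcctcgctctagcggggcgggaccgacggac
KCNAB2 has 1 GGAA, KCNJ10 1 TTCC, KCNH1 2 TTCC and KCNS3 none of either in these bases. The siNEG summit was 3 bases before the start in KCNAB2, 164 in KCNJ10, 254 in KCNH1 and 10 in KCNS3. None of these 4 windows holds the longer ETS letters CCGGAA on either strand.

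Over all windows, CCGGAA on either strand, which includes a GGAA, was in 11 of 110 potassium channel promoters (10%) and in 21.2% of the 22199 promoters of protein-coding genes. Among promoters of protein-coding genes that met a siNEG interval it was in 42.7%. The bare GGAA was in 93.6% and 95.1% of potassium channel and all promoters, and the tandem GGAAGGAA in 5.45% and 3.70%. A match describes the letters and does not show a bound site.

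Sites called in both libraries mostly lay at other genes near the potassium channel genes. Of 134 siNEG sites 24 were shared (17.9%, 11.8 to 25.5), against 15.6% of the whole siNEG list. Of the 24, 20 were within 1 kb of an end of another gene, 2 inside another gene and 2 between genes. Over the whole siNEG list, 1663 of the 2544 shared intervals lay at gene ends. The site inside COX7A2L had its siNEG summit 159 bases from a RefSeq start of that gene. Sites with a potassium channel gene as the nearest gene were shared in 1 of 47 cases, and sites nearest to another gene in 23 of 87. These groups differ in location. The 47 were 6 sites at member ends, 23 inside members and 18 between genes. Over the whole siNEG list 28.2% of intervals at gene ends, 8.1% inside genes and 8.84% between genes were shared. A share matched for location and strength was not computed. The 42 siNEG sites at ends of other genes had a median of 28 reads, against 12 reads for all gene-end intervals, while the 23 sites inside a potassium channel gene and over 1 kb from any member's end had a median of 5, against 7 for all intervals inside genes.

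At all 24 shared sites the raw pileup was lower with siEWS-FLI. Its range was 4 to 47 reads (median 11) with siEWS-FLI and 8 to 555 reads (median 65.5) with siNEG, and the ratio of siEWS-FLI to siNEG ran from 0.0847 to 0.75 with a median of 0.181. It was below the rough depth ratio of 0.562 at 22 sites, and the whole counting interval of the ratio was below it at 18. Mitochondrial reads left in that depth ratio make both counts uncertain. The ratios of siEWS-FLI to siNEG fell with siNEG strength over the whole list too. A shared site needs at least 4 siEWS-FLI reads, so weak siNEG sites cannot give low ratios. That sets part of the fall in advance. At siNEG pileups of 50 reads or more the median ratio was 0.156 in potassium channel windows and 0.140 over the whole list, and at 20 to 49 reads it was 0.20 and 0.267.

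The closest such neighbours lay within a few kilobases of the channel gene. In the KCND1 window, the gene of Kv4.1, the site 75 bases inside OTUD5, a deubiquitinase gene, had 16 reads with siEWS-FLI (9.15 to 26) and 96 with siNEG (77.8 to 117) on chromosome X (48957787 to 48958584), 3.07 kb from KCND1. Beside KCNJ14, an inward rectifier gene, the site 210 bases outside CYTH2, which encodes an exchange factor for ARF proteins, had 15 reads with siEWS-FLI (8.40 to 24.7) and 155 with siNEG (132 to 181), 2.18 kb from KCNJ14. Beside KCNAB3, the TRAPPC1 site had 11 reads with siEWS-FLI and 66 with siNEG at 2.12 kb. Beside KCNH4, the RAB5C site had 7 with siEWS-FLI and 34 with siNEG at 1.83 kb, and beside KCNH6 the DCAF7 site had 5 with siEWS-FLI and 18 with siNEG at 1.38 kb. In none of these 5 windows was a site called within 1 kb of the channel gene itself. Such sites were rare over all 96 members, at 1.04% with siEWS-FLI and 6.25% with siNEG within 1 kb of an end.

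For comparison with the member promoters, the 250 bases before the start of 3 of these closest neighbours are printed in the same way. Over all windows, 17 neighbour genes had a RefSeq promoter window that met a shared interval, and 11 of them, TRAPPC1 among them, held CCGGAA in such a window. A gene counted if any such window held it, unlike the shares of CCGGAA given above, which are per window. The share over all promoters that met a shared interval was not computed. OTUD5 is chrX:48958382-48958631 (minus strand), CYTH2 chr19:48469119-48469368 (plus) and RAB5C chr17:42154990-42155239 (minus).
OTUD5: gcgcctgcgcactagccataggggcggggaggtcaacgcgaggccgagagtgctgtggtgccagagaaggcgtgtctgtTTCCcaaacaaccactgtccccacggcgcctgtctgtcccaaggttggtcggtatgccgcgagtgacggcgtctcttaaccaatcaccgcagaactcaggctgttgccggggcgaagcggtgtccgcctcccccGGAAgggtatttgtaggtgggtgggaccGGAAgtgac
CYTH2: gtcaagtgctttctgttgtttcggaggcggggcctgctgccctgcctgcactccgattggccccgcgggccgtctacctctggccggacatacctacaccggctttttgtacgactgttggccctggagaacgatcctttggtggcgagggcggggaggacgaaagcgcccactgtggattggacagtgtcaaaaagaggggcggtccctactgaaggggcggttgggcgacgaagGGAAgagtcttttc
RAB5C: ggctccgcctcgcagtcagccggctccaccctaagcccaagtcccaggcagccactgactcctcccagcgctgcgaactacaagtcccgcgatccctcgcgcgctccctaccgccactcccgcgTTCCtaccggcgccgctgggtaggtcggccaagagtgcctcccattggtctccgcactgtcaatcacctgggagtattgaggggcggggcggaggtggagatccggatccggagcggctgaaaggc
OTUD5 has 2 GGAA and 1 TTCC and its window holds CCGGAA, CYTH2 has 1 GGAA, and RAB5C has 1 TTCC. The siNEG summit was 75 bases after the start of OTUD5, 210 before that of CYTH2 and 76 before that of RAB5C.

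Other shared sites were further out. KCNK4, which encodes a mechanosensitive K2P channel, lies among other genes on chromosome 11 and had 4 shared sites. Those at BAD, FKBP2, TRMT112 and ESRRA had 18, 30, 31 and 9 reads with siEWS-FLI and 175, 154, 149 and 63 with siNEG, at 21.2, 49.8, 17.6 and 5.26 kb. PCNX3 near KCNK7 and LMTK3 near KCNJ14 had 21 and 20 reads with siEWS-FLI and 81 each with siNEG. PSMD8 near KCNK6, MCRS1 near KCNH3 and MOCS3 near KCNG1 had 11, 12 and 10 with siEWS-FLI and 77, 76 and 65 with siNEG. TAF1C near KCNG4, PIGM near KCNJ9 and KCNJ10, and SLC67A1 near KCNQ1 had 6, 5 and 6 with siEWS-FLI and 46, 37 and 30 with siNEG. All these sites were weaker with siEWS-FLI by more than the counting error of either value. TSSC4, 44.5 kb from KCNQ1, had the highest pileups in both libraries among the sites in these windows, 47 with siEWS-FLI (34.5 to 62.5) and 555 with siNEG (510 to 603).

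The smallest relative differences were at shared sites of 8 to 26 siNEG reads. A shared site needs at least 4 siEWS-FLI reads, which sets a lower bound on the ratio at each. The DCAF7 site, with 18 siNEG reads, had a lower ratio of 0.278, and the cause was not tested. CATSPERG near KCNK6 had 14 reads with siEWS-FLI (7.65 to 23.5) and 26 with siNEG (17 to 38.1), COX7A2L near KCNG3 9 with siEWS-FLI (4.12 to 17.1) and 17 with siNEG (9.90 to 27.2), and C19orf73 near KCNA7 6 with siEWS-FLI (2.2 to 13.1) and 8 with siNEG (3.45 to 15.8). Their intervals overlapped between libraries. An intergenic site near KCNF1, nearest to PDIA6, had 9 reads with siEWS-FLI and 13 with siNEG. KCNJ15, the gene of Kir4.2, was the nearest gene to its shared site, which lay 16.7 kb outside the gene with 4 reads with siEWS-FLI (1.09 to 10.2) and 10 with siNEG (4.80 to 18.4).

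**Figure D3:**
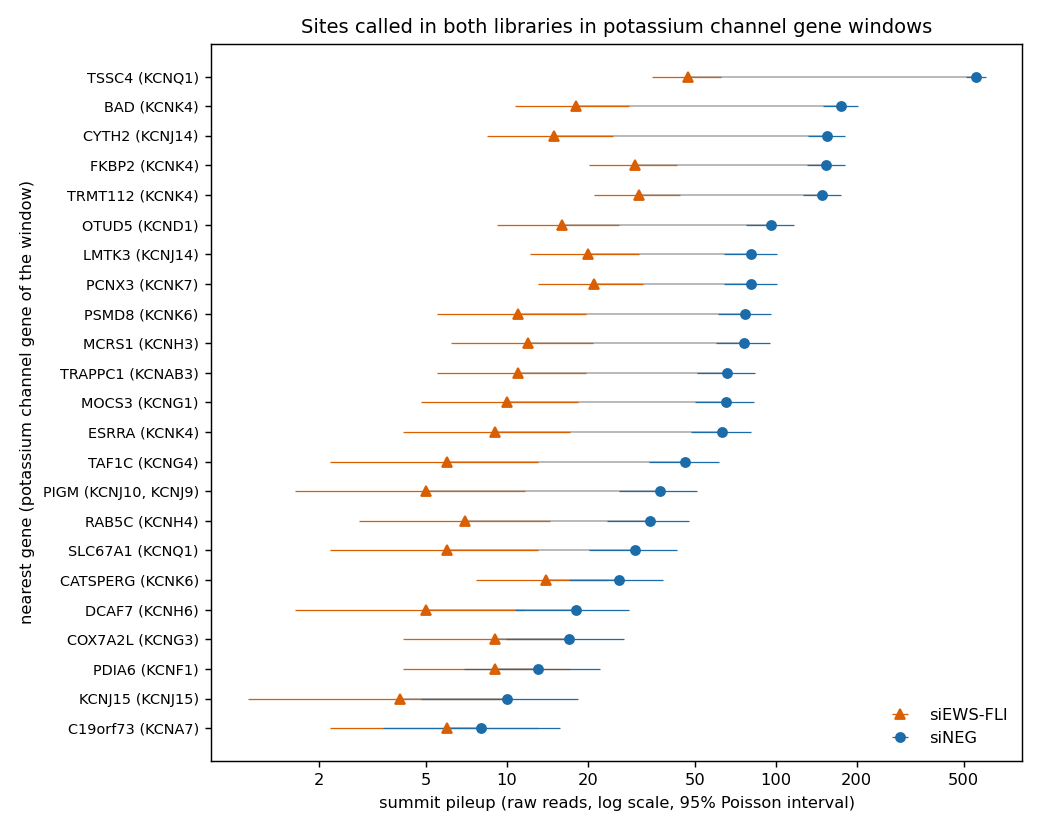
Summit pileup in raw reads (log axis) with siEWS-FLI (orange triangles) and siNEG (blue circles) at 23 of the 24 sites called in both libraries; each row names the nearest gene and, in brackets, the potassium channel gene of the window, and lines are 95% Poisson intervals. Every siEWS-FLI value is below its siNEG value, and KCNJ15 is the only row whose nearest gene is a potassium channel gene.

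KCNE4, which encodes an auxiliary subunit that inhibits KCNQ1 channels, had the strongest siNEG sites of those whose nearest gene was a member. No siEWS-FLI summit was called within 50 kb of it. On chromosome 2 an intergenic site (223041619 to 223042336) 10.4 kb from the gene had 60 siNEG reads (45.8 to 77.2), and a second (223043110 to 223043505) 8.83 kb away had 39 (27.7 to 53.3). At both, a siEWS-FLI pileup of 14 would not have been called at the siNEG background, a limit that can be too high. Of the 15 siNEG sites with 50 reads or more in these windows, 13 lay at ends of other genes, and 14 were shared (93.3%), against 79.8% of the 847 such intervals in the whole list; the 60-read KCNE4 site was the exception. At 20 to 49 reads 5 of 17 were shared, against 41.4% of the whole list, and at 10 to 19 reads 4 of 24, against 16.7%.

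Other intergenic siNEG sites whose nearest gene was a member were weaker and, but for the KCNJ15 site, not shared. KCNIP1 had 22 reads (13.8 to 33.3) at 22.1 kb, a site that KCNMB1 has in its window too and that lies 2 bases from an end of the noncoding gene LINC01366. KCNG1 had 16 reads at 10.9 kb, KCNE3 11 reads at 1.31 kb and 10 at 25.3 kb, and KCNT1 6 reads at 2.27 kb. With siEWS-FLI, sites nearest to a member and uncalled with siNEG had 4 to 6 reads. They included 6 reads 3.10 kb from KCNJ1, which KCNJ5 has in its window too, and 5 reads 5.42 kb from KCNE3.

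**Figure D4:**
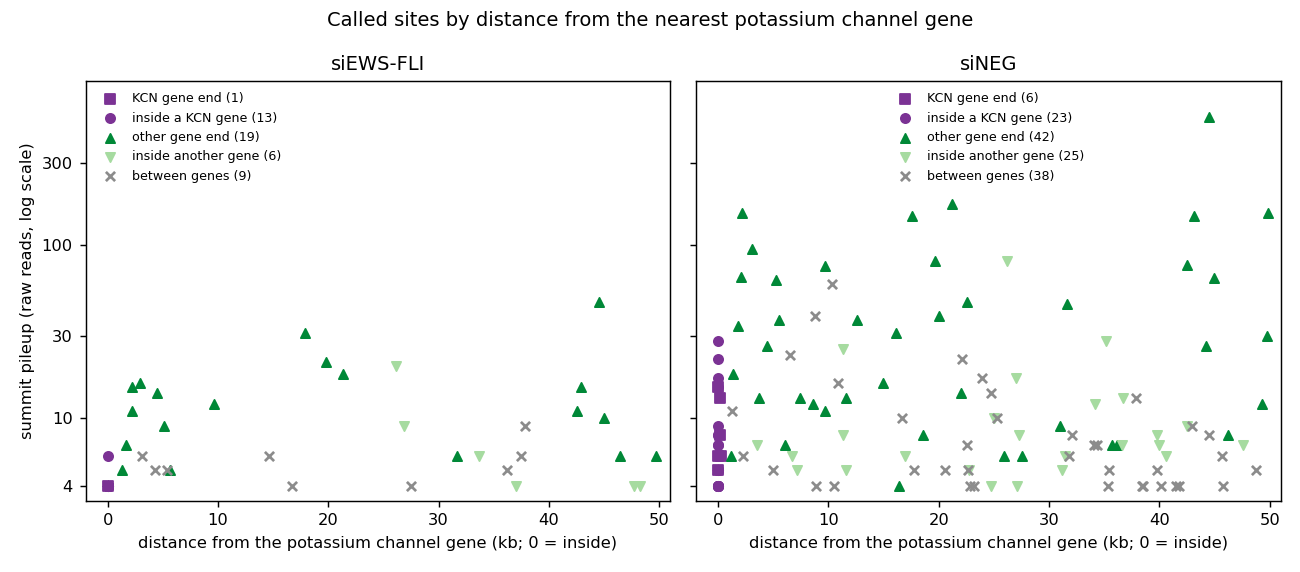
Summit pileup in raw reads (log axis) of every called site against its distance from the nearest potassium channel gene in kb (0 is inside), for siEWS-FLI (left) and siNEG (right); purple marks sites in or at potassium channel genes, green those at or in other genes and grey those between genes. Sites in or at potassium channel genes stay at or below 6 reads with siEWS-FLI and 28 with siNEG, while gene-end sites of other genes reach 47 and 555.

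The 95% intervals of the channel classes overlapped one another for the share of genes with a summit in the wide window. Classes were assigned by gene symbol alone. With siEWS-FLI and siNEG, 16 and 26 of 40 voltage-gated genes had one (40% and 65%), 7 and 11 of 16 inward rectifiers (43.8% and 68.8%), 5 and 9 of 15 tandem-pore genes (33.3% and 60%), 3 and 6 of 8 calcium- or sodium-activated genes (37.5% and 75.0%), and 5 and 10 of 17 auxiliary genes (29.4% and 58.8%). Genes without a summit in either library included KCNA1, KCNQ3 and KCNQ5 among neuronal voltage-gated channels, KCNJ2 and KCNJ3 among inward rectifiers, KCNK1, KCNK2 and KCNK9 among tandem-pore channels, and KCNE1 and KCNE2 among auxiliary subunits.

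Other ion channel genes, namely sodium, calcium, TRP, HCN, cyclic nucleotide-gated and CLCN channel genes, gave shares close to those of the potassium channels at gene ends. Of 82 such genes 2 had a siEWS-FLI (2.44%, 0.297 to 8.53) and 8 a siNEG summit (9.76%, 4.31 to 18.3) within 1 kb of an end. Inside the gene 18.3% and 32.9% had one, with a median length of 80.7 kb, and in the wide window 39.0% and 63.4%. Of 18 partner genes of potassium channels outside the KCN symbols, such as DPP6, ABCC8 and the calmodulin genes, 2 had a siEWS-FLI and 5 a siNEG summit within 1 kb of an end.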

How the data were processed

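CUT&Tag peak lists were deposited for 1 siEWS-FLI and 1 siNEG library of TC32 cells, called per library. The submitters' processing notes list MACS2 2.2.9.1, Bowtie2 2.4.5, Trim Galore 0.6.6 and the build hg38, with no role for any. The deposited columns are the interval, a display score (not used), the fold enrichment at the summit as a ratio over local background, −log10 p and −log10 q, and the summit position. Neither a control library nor duplicate handling is described by the labels.

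Lines sharing an interval were merged, keeping the highest −log10 q. Each summit's pileup was solved jointly from the deposited fold (a pseudocount of 1 added to pileup and background) and the Poisson −log10 p. A whole pileup fitted 100% of lines within 0.001, in proportion above 10. The solver was tested on simulated data with local backgrounds lower than at the strongest sites here, such as 23.94 siNEG reads at TSSC4. Pileups are raw. Shared means an overlap of at least 1 base. Intervals are exact binomial or Poisson and cover counting error only; a count of 0 allows up to 3 counts. The gene table has no strand, so gene ends pool starts and ends. Members and lists were chosen with earlier results of these data known. Named genes were those with a summit within 1 kb or inside, those with a shared window site, those with the strongest sites, KCNN1 and KCNA5. Alternatives were other windows, stricter and wider intervals, a shortened siNEG list, nearest genes only, other backgrounds and a reciprocal overlap. Some genes covered by the rule are not reported here by name. Python 3.11.15, pandas 2.3.3 and scipy 1.17.1 were used.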

Additional observations from a re-analysis of the deposited data

How the results depend on the processing

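Potassium channel genes had summits more often with siNEG than with siEWS-FLI in each window and threshold applied to both lists, but not once the siNEG list was shortened. The share of genes with a siEWS-FLI summit, 37.5% as reported, was 11.5% inside the gene, 1.04% within 1 kb of either end, 49% within 100 kb, 13.5% at −log10 q of at least 5, 14.6% for intervals wider than 200 bases and 15.6% when a summit counted for the nearest gene only. The siNEG share, 64.6% as reported, was 18.8%, 6.25%, 83.3%, 42.7%, 45.8% and 30.2% under the same settings, and 36.5% with the siNEG list cut to the length of the siEWS-FLI list by −log10 q, below the 37.5% with siEWS-FLI. The share of siNEG genes that also had a siEWS-FLI summit, 51.6% as reported, was 22.2% inside the gene, 0% within 1 kb, 31.7% at the stricter q, 29.5% for wider intervals, 65.7% with the shortened siNEG list and 34.5% by nearest gene. The share of siNEG sites in the windows that were shared, 17.9% as reported, was 9.70% at a reciprocal overlap of 50% and 46.9% with the shortened list. In the wide window the siNEG share of potassium channel genes was 8.67 percentage points below that of all genes and 1.17 points above that of other ion channel genes. The causes were not tested. The weighting by neighbours and a window without gene interiors were chosen after seeing the data. No paired analysis was possible because each group has 1 library and the labels give no replicate numbers. The depth and the 4-read limit of calling leave weak siEWS-FLI sites undetectable.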

Other observations

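Genes with KCN symbols that do not encode proteins were looked at apart from the members. Of 32 such genes, 2 had a siEWS-FLI and 4 a siNEG summit within 1 kb of an end. Inside the gene 3 had a summit with siEWS-FLI and 3 with siNEG. KCNK4-CATSPERZ had a summit within 1 kb in both libraries, 9 reads with siEWS-FLI and 63 with siNEG. A site of 7 siNEG reads, uncalled with siEWS-FLI, lay 371 bases from an end of KCNK15-AS1, the gene end nearest to it. The KCNQ1 site of 7 siNEG reads, also uncalled with siEWS-FLI, lay 196 bases from an end of KCNQ1OT1, the antisense RNA gene of an imprinted region. Inside KCNQ1OT1 there was a siEWS-FLI summit of 4 reads and no siNEG summit.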
